A study of Mus musculus with 30 samples.

Results

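This account covers 89 of 110808 ATAC sites of mouse CD4 T cells, selected on the measured values: they lost accessibility when WT cells were activated, and were higher in activated KO than in activated WT cells. Counts were scaled to CPM (counts divided by the library's total in sites and multiplied by 1000000) and averaged over the 3 libraries of a group. A site was taken when its log2 of activated over naive WT was -1 or lower and its log2 of activated KO over WT was 0.7 or higher, after 0.5 CPM was added to both means. Of 17981 sites that closed in WT by this limit, the 89 were 0.495%. A drop of the same size in activated KO was met by 498 closing sites, 2.77% of them. The working description of sites that stay open in KO did not hold in the values, since all 89 had a lower mean in activated than in naive KO cells. They are named here by the rule, as sites that closed in WT and were higher in activated KO.

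The CD4 T cells came from mouse spleen and lymph nodes, were enriched with an isolation kit and were sorted as naive. WT are the control mice and KO are mice named PKA knockout, with no strain, age, Cre driver or deleted gene in the labels. Naive cells were profiled directly, and activated cells after 3 days with antibodies to CD3 and CD28. RNA was also taken from cells rested 3 days in IL-7 and then given 1 ug/mL forskolin for 4 h, and every group had 3 libraries. Separate animals are not stated for the libraries of a group, and p-values therefore speak only of the spread among these samples, which may be technical. Equal replicate numbers are not stated to share an animal either. ATAC libraries held 18522373 to 25318916 counts in sites. RNA libraries held 8272201 to 11950488 counts for naive and activated cells, and 7665955 to 11802115 for forskolin. Prkaca, the gene of a catalytic PKA subunit, averaged 34.8 CPM in naive WT and 2.33 CPM in naive KO, and 49.6 and 1.11 CPM after activation. The 8 markers of CD4 T cells summed to 2947 to 3076 CPM in activated WT and 2614 to 2630 CPM in activated KO, with none at 0 and 3 lower in KO by edgeR. The 5 markers of regulatory T cells summed to 1296 to 1447 CPM in activated WT and 843 to 901 CPM in activated KO, with none at 0 and 3 lower. In naive cells the same 5 summed to only 53.8 to 62.0 CPM in WT and 50.7 to 52.7 CPM in KO. Their sum thus rose with activation in both genotypes, and Il2ra among them is also in the effector and activation list used below. The activated sums therefore do not count regulatory T cells. The summed B cell markers were at 167 to 202 CPM in activated WT and 280 to 318 CPM in activated KO, with Blk at 0 in WT and Pax5 and Blk at 0 in KO. Of 7 tested B cell markers 5 were higher in activated KO. In naive cells the 16 B cell markers summed to 545 to 567 CPM in WT and 537 to 581 CPM in KO. None of the 102 sites within 10 kb of the 16 genes, or of the 56 sites near the regulatory T cell markers, was among the 89. Only 8 and 10 of those sites closed in WT, and 0.495% of all closing sites are among the 89, so nothing is read from this absence. The part of these marker differences in the sites below was not tested, and more cells of a type cannot be told apart from more RNA per cell in such bulk samples.

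ATAC-seq measures how readily a transposase cuts DNA, so a site with many cuts is open chromatin, usually a promoter or an enhancer. Naive T cells hold a set of open enhancers that sustain quiescence and recirculation. After T cell receptor signals many of these close while sites bound by activation factors open. PKA is the kinase that cyclic AMP switches on, and it phosphorylates CREB and many other proteins. Forskolin raises cyclic AMP by activating adenylyl cyclase.

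The 89 sites were spread over 18 chromosomes, with 11 on chromosome 1, 9 on chromosome 7 and 8 on chromosome 2. All 89 were 400 bp wide. Of the RefSeq promoter windows used here (250 bases before to 50 after a start), 1 was touched by the 89 sites. Spans of protein-coding genes held 52 of them, or 58.4%, close to the 60.2% of other closing sites. The genes Ptpn14 and Mbnl1 had 2 of the sites each, 24.7 and 27.2 kb apart, and no gene had more.

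The promoter touched was that of Ifi213, a member of the PYHIN family of interferon-inducible genes. Its site, chr1:173599001-173599401 (mm10), overlaps the RefSeq window chr1:173599223-173599522 (GRCm38.p6, minus strand). The window is shown because this promoter's libraries, described further on, split within a genotype. Capitals mark motif letters found on either strand:
Ifi213 promoter: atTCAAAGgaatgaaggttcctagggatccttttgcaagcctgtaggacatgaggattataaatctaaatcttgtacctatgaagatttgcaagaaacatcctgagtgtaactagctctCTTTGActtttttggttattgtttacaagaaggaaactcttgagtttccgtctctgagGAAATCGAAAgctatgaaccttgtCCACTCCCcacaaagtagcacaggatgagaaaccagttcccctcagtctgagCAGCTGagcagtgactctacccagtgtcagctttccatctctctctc
Of 11 motifs searched on both strands, CTTTGA (TCF-LEF) was found at 2 places in the window. GGGNGTGG (KLF), an IRF motif and CAGCTG (E-box) were each found once. Over 32851 promoter windows of the same length, CTTTGA was present in 16%, GGGNGTGG in 17.6%, the IRF motif in 3.44% and CAGCTG in 16.3%. No match was found for the CRE letters TGACGTCA, present in 1.79% of windows, or for TGACG (the start of the CRE), the AP-1 letters TGANTCA, ACAGGAAG (ETS), TGTGGTT (RUNX), GAGGAAGT (SPI) or GGGANTTCC (NF-kB). None of the searched letters overlapped another in this window.

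Across the 89 sites the median level was 7.94 CPM in naive WT, 9.82 in naive KO, 2.09 in activated WT and 4.08 in activated KO. Activated WT lost a median of 1.64 on the log2 scale against naive WT, from -1.01 to -3.28. KO cells also closed these sites. Their log2 of activated over naive KO had a median of -1.05, from -0.04 to -2.68, where the other closing sites had -1.97. The activated KO libraries all lay below the naive KO libraries at 83 of the 89, a description given without a share over all sites. All 89 were called lower in activated than in naive KO by edgeR's quasi-likelihood test, where 38.8% of all sites and 99.9% of the other closing sites were lower. On means with 0.5 CPM added, 47 fell at least 2-fold in KO and 15 fell by less than 0.5 on the log2 scale. These counts depend on the scaling. With TMM scaling of the same means the median of the 89 was -1.56 in KO and -2.13 in WT. By edgeR the median log2 fold change was -1.79 in KO and -2.44 in WT. The median of all sites moved by 0.84 in activated over naive WT on the CPM + 0.5 scale, and by 0.42 with TMM scaling. The falls on either scale are thus against a table that shifted upward.

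**Figure D1:**
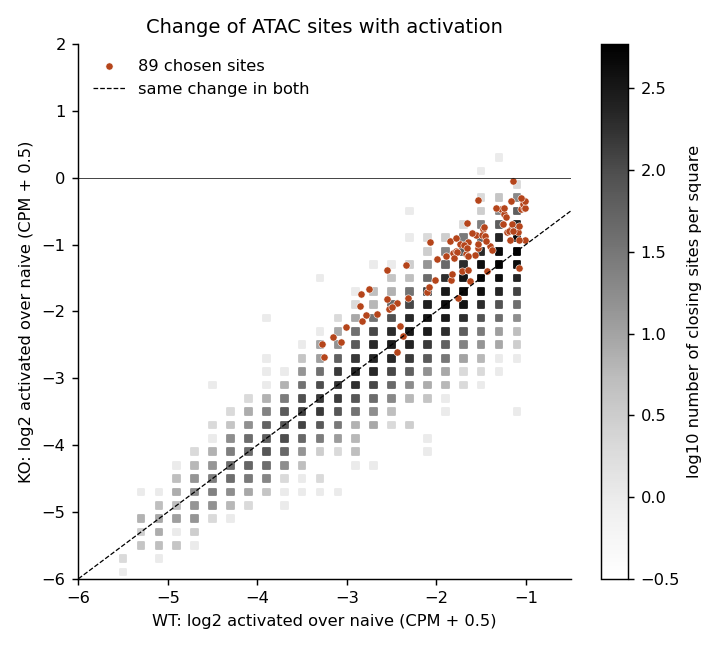
Change with activation in WT (x axis) and KO (y axis), as log2 of activated over naive mean CPM + 0.5. Grey squares count the 17981 sites that closed in WT, red points are the 89 sites, and the dashed line marks the same change in both. All 89 points lie below 0 on the KO axis, and 86 lie above the line.

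The difference between activated KO and WT chose the sites and is given as a description. Its median was 0.79 log2, from 0.70 to 2.46. The activated KO libraries all lay above the WT libraries at 84 sites, which the choice goes far to fix. No share over all sites is given beside it, so nothing is read from this count. Nearest inside the limit were the Farp1 site with 0.702 and chr13:93546044-93546444 with 0.704. Just outside lay chr1:143653685-143654085 with 0.699 and chr17:28657893-28658293 with 0.698. At the closing limit, chr9:45126992-45127392 (-1.01) and chr7:7130456-7130856 (-1.01) were in, while chr1:88553537-88553937 (-0.99) and chr6:31160006-31160406 (-0.98) were out. The activated WT counts were low, with a median of 48 per library and a range of 3 to 677, and 27 sites averaged under 1 CPM there.

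In the authors' deposited table, FDR was under 0.05 for 1 of the 89 in activated cells, the Cd4 site, where 0.519% of all sites were called higher. Testing the same counts with edgeR called 86 of 89 higher, against 10.9% of all sites. The deposited FDR called 4.64% of all sites lower, and it was near 1 at folds above 0. At chr14:61971104-61971504 it was 0.999, where the deposited log2 fold had KO above WT by 0.618. The counts of 1 and 86 are therefore not on one footing. Both tests use the contrast that chose the sites, so neither count adds support. The rule was also applied to 2 replicate numbers at a time. It then chose 114, 156 and 129 sites with replicate 1, 2 or 3 left out, of which 64, 72 and 66 were among the 89. Their median difference was 0.80, 0.79 and 0.80 in the choosing libraries and 0.64, 0.48 and 0.57 in the left-out ones, where the median of all closing sites was between -0.06 and 0.00. In the left-out libraries, where KO was set over WT of the same number, 107, 143 and 116 of the sites so chosen were above 0. These values describe those sites and not the 89, for which every activated library was used in the choice.

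**Figure D2:**
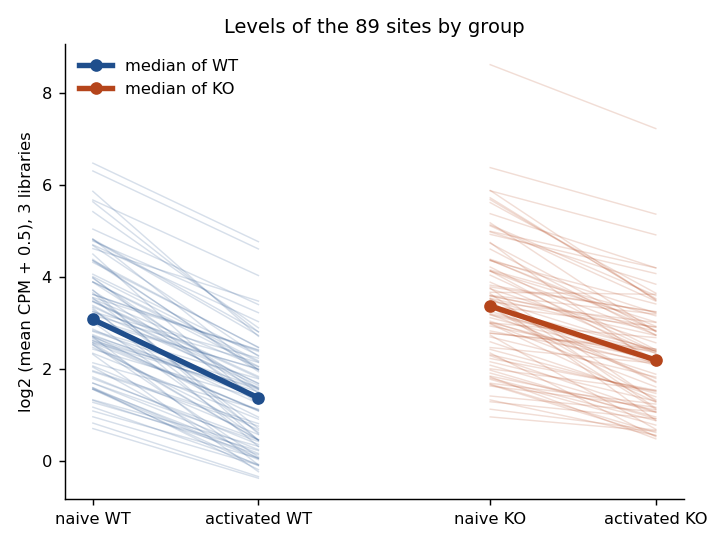
Levels of the 89 sites as log2 of mean CPM + 0.5 (y axis) in naive and activated WT (blue) and KO (red). Thin lines are sites and thick lines medians. Both sets fall with activation, from a median of 7.94 to 2.09 CPM in WT and from 9.82 to 4.08 CPM in KO.

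In naive cells the mean was higher in naive KO at 77 sites and lower at 12, with a median log2 difference of 0.20 and a range of -0.29 to 2.14. All naive KO libraries lay above all naive WT libraries at 36 sites, or 40.4%, against 9.37% of other closing sites and 9.07% of all sites. By edgeR's quasi-likelihood test 15 of 89 were higher and 0 lower in naive KO, where 0.938% of all sites were higher and 0.607% lower. At unadjusted p under 0.05, in either direction, there were 41 of the 89. The same limit was met by about 12800 of all 110797 sites tested and about 3070 of 17891 other closing sites. The authors' deposited table called 0 of the 89 in naive cells, where 0.0171% of all sites were called. Its FDR there was 0.993 at chr6:3367070-3367470, with a log2 fold of 0.48 for KO over WT. At chr2:118008044-118008444 it was 0.656, with a fold of 0.006. This FDR was thus not highest at a fold near 0, and its count is not on one footing with edgeR's. The naive WT libraries also entered the rule, so nothing is read from these counts. The activated difference exceeded the naive one at 86 sites, by a median of 0.61 over the 89, and by 0.7 or more at 30. The rule's limit on the activated difference goes far to fix this, so it is a description only. At the sites of Rora, Ppic and Iqgap2 the naive difference was the larger, and these closed more in KO than in WT, while chr1:156522133-156522533 closed by -2.37 in both.

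**Figure D3:**
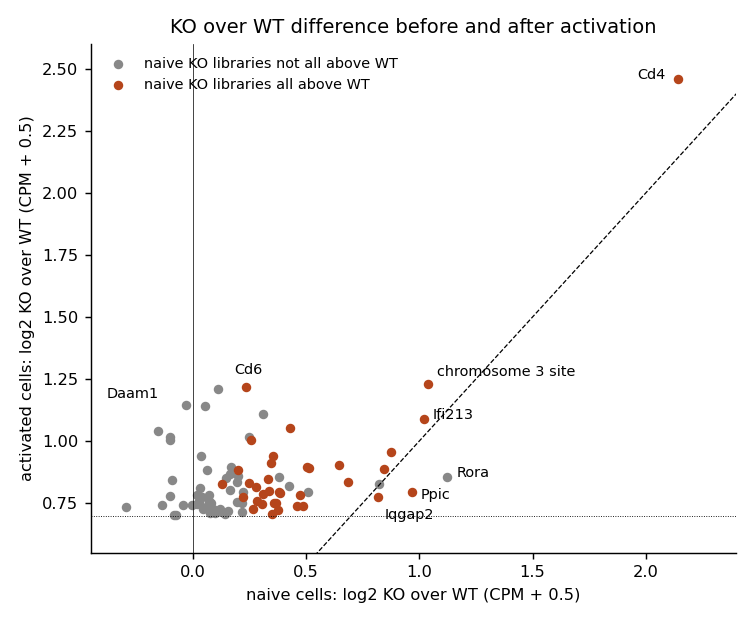
Log2 of KO over WT in naive cells (x axis) and activated cells (y axis), 1 point per site. The dotted line is the limit of 0.7, the dashed line marks equal differences, and red points have all naive KO libraries above WT. The Cd4 site stands apart at 2.14 and 2.46, and 9 sites have a naive difference of 0.7 or more.

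The site at chr6:124885164-124885564, inside the gene of the CD4 coreceptor, had 88.7, 83.3 and 93.6 CPM in naive WT and 415, 379 and 382 CPM in naive KO. After activation it had 26.7, 26.7 and 26.8 CPM in WT and 148, 145 and 155 CPM in KO. KO was far above WT in both states, and activated KO was above even naive WT. This is also the site with the highest naive WT level of the 89. Of 11 sites within 10 kb of Cd4, 4 were higher by 0.7 or more in activated KO, up to 4.31, and 1 was lower, at -0.88, with a median of 0.04. In naive KO 4 of the 11 were higher by as much. Cd4 RNA did not follow, at 520, 592 and 619 CPM in activated WT and 518, 546 and 548 CPM in KO (log2 fold change -0.13, SE 0.07, adjusted p = 0.28 by edgeR).

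A site at chr3:60785368-60785768, with no counted gene within 10 kb, had 25.9, 23.1 and 26.6 CPM in naive WT and 55, 48.1 and 53.7 CPM in naive KO. In activated cells it had 4.11, 4.70 and 4.24 CPM in WT and 10.2, 11.4 and 11.1 CPM in KO, so both states differed without overlap. The nearer of the Mbnl1 sites lies 146 kb before it. A 500 kb window of chromosome 3 that holds these 3 sites had 56 sites, of which 46 were higher in activated KO and 49 in naive KO, with medians of 0.34 and 0.31. Over all sites 57.5% were higher in naive KO, and the medians were 0.03 in both states. All 14 closing sites in that stretch were higher in activated KO, but 3 of them were chosen for being so. These counts describe the stretch only. Without the Cd4 site and the 3 sites of this stretch, 85 sites were left, of which 12 were called higher in naive KO.

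Other sites differed mostly after activation. At chr19:10811425-10811825 in Cd6, a surface receptor that tunes T cell receptor signals, naive levels were 9.63, 9.27 and 10.2 CPM in WT and 10.8, 11.8 and 11.9 CPM in KO. Activated levels were 2.88, 3.16 and 2.12 CPM in WT and 7.02, 7.86 and 6.14 CPM in KO. The naive libraries were close, though not overlapping, while the activated KO level was above WT by 1.22 log2.

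In Ptpn14, a non-receptor tyrosine phosphatase, both sites showed this. The one at chr1:189830927-189831327 had 11.3, 11.4 and 11.1 CPM in naive WT and 11.9, 10.6 and 14.1 CPM in naive KO. It fell to 4.74, 4.75 and 5.03 CPM in activated WT and stood at 11.9, 12.2 and 11.5 CPM in activated KO. In mean CPM it moved with activation in KO by only -0.04 log2, the smallest fall of the 89. This depends on the scaling. By edgeR with TMM scaling it was lower in activated than in naive KO, with a log2 fold change of -0.654 (SE 0.104, adjusted p = 5.37e-06). The second, chr1:189855634-189856034, fell in both, to 0.87, 1.04 and 0.69 CPM in WT and 2.43, 2.33 and 2.05 CPM in KO. Of 19 sites within 10 kb of Ptpn14, 6 were higher by 0.7 or more in activated KO and 0 lower.

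The sites of Daam1, a formin that assembles actin, and Tspan3, a tetraspanin, closed strongly in both genotypes. At chr12:71868691-71869091 in Daam1 naive cells had 7.82, 8.93 and 6.10 CPM in WT and 7.14, 8.28 and 6.96 CPM in KO. Activated cells had 0.99, 0.87 and 0.78 CPM in WT and 2.52, 2.86 and 2.28 CPM in KO. At chr9:56146257-56146657 in Tspan3, naive levels were 16.7, 14.4 and 15.0 CPM in WT and 15.0, 16.1 and 16.8 CPM in KO, and activated levels were 2.01, 1.42 and 2.12 CPM in WT and 5.27, 4.36 and 4.42 CPM in KO. At both sites the naive libraries overlapped and the activated ones did not.

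At chr3:100702929-100703329, with no counted gene within 10 kb, the activated difference exceeded the naive one by 1.19 log2, the most of the 89. Naive levels were 6.06, 6.37 and 4.48 CPM in WT and 4.57, 5.98 and 4.53 CPM in KO. Activated levels were 1.11, 1.5 and 2.26 CPM in WT and 3.44, 3.64 and 4.51 CPM in KO. Lower still was chr11:64039583-64039983 in Cox10, a gene of heme A synthesis, with 0.83, 0.58 and 1.11 CPM in activated WT and 1.65, 2.81 and 2.70 CPM in KO. The site chr9:48558591-48558991 in Nnmt had 4.70, 2.29 and 4.75 CPM in activated WT and 7.34, 9.12 and 9.49 CPM in KO, while Nnmt RNA was at 0 counts in every library, which allows up to 3 counts in each.

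The most accessible of the sites in naive WT, apart from those of Cd4 and Stat4, differed slightly less between genotypes. In activated cells KO was above WT by 0.757, 0.783 and 0.727 log2, in the order given here. The median over all the selected sites was 0.794. The Stat4 site, described further on, was above that median, at 0.884. With no counted gene within 10 kb, chr12:25958619-25959019 had 80.1, 73.3 and 82.4 CPM in naive WT and 91.0, 81.1 and 75.9 CPM in naive KO, then 22.7, 26.0 and 23.1 CPM in activated WT and 44.0, 40.8 and 37.5 CPM in activated KO. Likewise without such a gene, chr2:118008044-118008444 fell from a mean of 57.7 to 6.05 CPM in WT and from 58.5 to 10.8 CPM in KO. The one at chr14:61971104-61971504 fell from 49.2 to 6.49 CPM in WT and from 50.9 to 11.1 CPM in KO. In each the activated libraries did not overlap between genotypes.

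At 3 sites, picked after their values were seen, libraries of 1 genotype did not stand together. At the Ifi213 promoter whose sequence is printed above, naive WT had 4.13, 3.48 and 12.8 CPM and naive KO 15.4, 13.6 and 13.9 CPM. Activated WT had 1.34, 0.46 and 3.83 CPM and activated KO 5.82, 4.17 and 3.68 CPM. The WT replicate 3 libraries thus stood with KO in both states. In RNA the naive WT library of the same number was also apart, with 1.70, 1.77 and 14.3 CPM in naive WT and 16.1, 14 and 17.7 CPM in naive KO. In forskolin-treated cells the split fell elsewhere, with 8.35, 1.49 and 1.61 CPM in WT and 8.39, 10.4 and 1.81 CPM in KO.

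A site with no counted gene within 10 kb, chr1:156522133-156522533, had 13.3, 12 and 34.5 CPM in naive WT and 38.3, 33.0 and 35.8 CPM in naive KO. It had 1.86, 1.08 and 7.43 CPM in activated WT and 7.57, 5.67 and 6.33 CPM in activated KO. Replicate 3 of WT was again with KO in both states. In Rora, a nuclear receptor gene, chr9:68884422-68884822 had 0.73, 1.26 and 1.40 CPM in naive WT and 0.72, 3.96 and 4.48 CPM in naive KO, and after activation 0.16, 0.33 and 0.32 CPM in WT and 0.23, 1.02 and 1.44 CPM in KO. Here KO replicate 1 stood with WT in both states. None of the 3 was called between genotypes by edgeR in either state. A genotype difference at these sites therefore rests on part of the libraries.

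**Figure D4:**
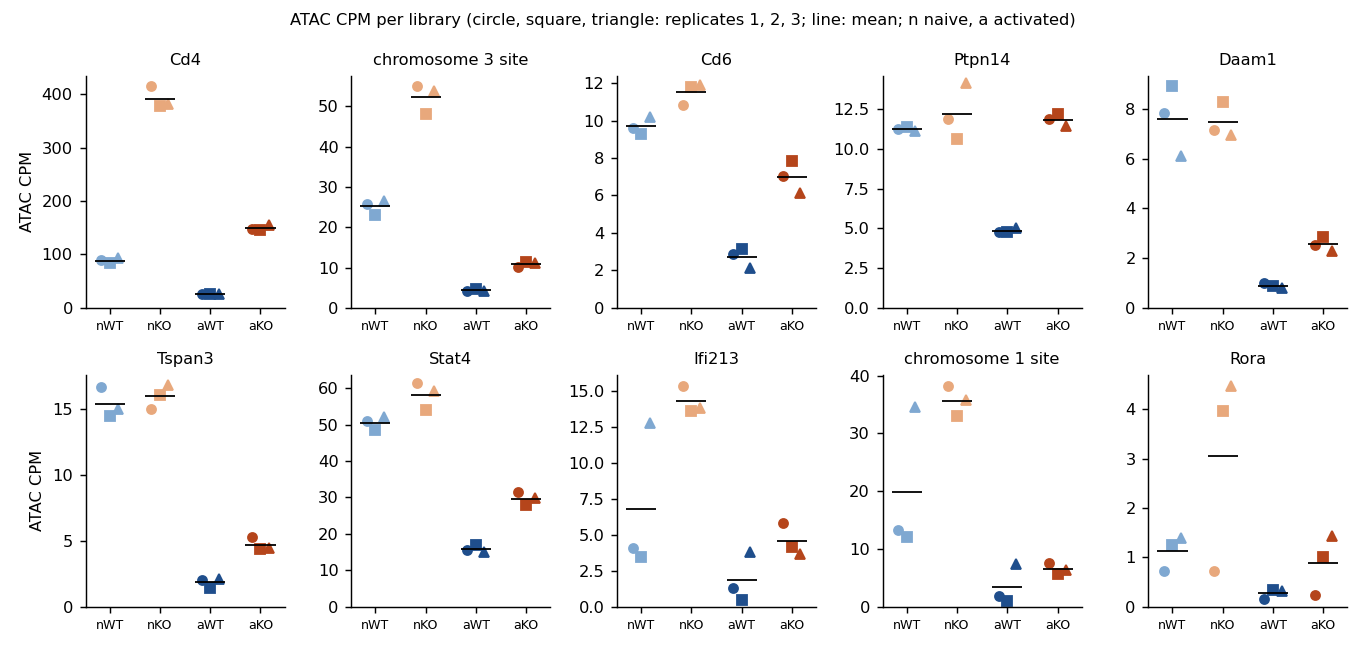
ATAC CPM (y axis, from 0) of 10 of the sites in each library, for naive (n) and activated (a) WT and KO. Symbols are replicates 1 to 3 and lines are means. At Ifi213 and the chromosome 1 site the WT triangle lies with KO, and at Rora the KO circle lies with WT.

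RNA was not used to choose the sites, so it was tested for the genes near them. Of the 89, 66 had a counted gene within its span or 10 kb on either side, 75 genes in all, of which 57 had enough counts to test. In activated KO against WT, 8 of the 57 were higher and 9 lower by edgeR's quasi-likelihood test at an adjusted p of 0.05, which is 14% and 15.8%. Over all genes tested 5.89% were higher and 9.04% lower, and over genes near the other closing sites 6.89% and 12.4%. The median log2 fold change of the 57 was -0.07, against 0.01 for all genes. The genes near the 89 sites thus moved in both directions.

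The 8 higher genes were Ptpn14, Smpdl3a, Rarg, Mbnl1, Tspan3, Iqgap2, Ptp4a3 and Commd7. Smpdl3a, an acid sphingomyelinase-like phosphodiesterase, had 5.89, 5.03 and 4.83 CPM in activated WT and 13.9, 10.4 and 11.6 CPM in KO, after 87.2 to 108 CPM in naive WT. Its log2 fold change in activated cells was 1.17 (SE 0.19, adjusted p = 0.000394 by edgeR). Its fall with activation was large in WT (log2 fold change -4.32), and its site also fell, from a mean of 6.55 to 2.54 CPM in WT and from 8.71 to 4.76 CPM in KO.

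Ptpn14 RNA rose with activation in WT while its sites closed. It had 1.61, 2.85 and 3.16 CPM in activated WT and 4.10, 7.05 and 6.51 CPM in KO, a log2 fold change of 1.18 (SE 0.27, adjusted p = 0.0053 by edgeR). Rarg, the gene of retinoic acid receptor gamma, had 12.5, 15.8 and 15.1 CPM in activated WT and 24.1, 25.9 and 34.0 CPM in KO (log2 fold change 0.93, SE 0.16). In forskolin-treated cells Rarg was also higher in KO, by 0.63 (SE 0.07).

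Mbnl1, a regulator of splicing with 2 of the sites, had 459, 573 and 521 CPM in activated WT and 745, 817 and 887 CPM in KO (log2 fold change 0.63, SE 0.08, adjusted p = 3.61e-05 by edgeR). At its site chr3:60611833-60612233 activated cells had 3.16, 3.29 and 3.97 CPM in WT and 5.78, 5.92 and 6.70 CPM in KO. This site was already higher in naive KO (log2 fold change 0.505, SE 0.105, adjusted p = 0.0126 by edgeR). The other Mbnl1 site was not called in naive cells (0.436, SE 0.136, adjusted p = 0.134 by edgeR). Both lie in the chromosome 3 stretch described above. Tspan3 rose strongly in WT, by 4.40 log2, while its site closed, and was higher in activated KO by 0.61 (SE 0.11). Ptp4a3, a phosphatase, differed by 0.43 (SE 0.08) in activated cells and by 1.62 (SE 0.05) after forskolin. Iqgap2, a scaffold protein, was higher by 0.44 (SE 0.10) and 0.69 (SE 0.07) in those states. Commd7, a COMM domain gene, was higher by 0.34 (SE 0.08) after activation, with 33.0, 38.2 and 37.3 CPM in WT and 44.8, 47.9 and 47.0 CPM in KO.

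The 9 lower genes went against their sites. Stat4, the transcription factor that carries IL-12 signals, had 262, 245 and 281 CPM in activated WT and 51.2, 47.1 and 52.8 CPM in activated KO, with no overlap. The log2 fold change was -2.41 (SE 0.08, adjusted p = 1.2e-12 by edgeR). Its site at chr1:52100516-52100916 moved the other way, with 15.5, 17 and 15.1 CPM in activated WT and 31.4, 27.9 and 29.7 CPM in KO, after 51.0, 48.6 and 52.0 CPM in naive WT. Of 23 sites within 10 kb of Stat4 it was the only one higher by 0.7 or more, and 7 were lower by as much, down to -2.41. Stat4 is 1 of 20 genes in the effector and activation list, and the sole member of that list near one of the 89 sites.

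Farp1, an exchange factor for small GTPases, had 69.3, 85.7 and 84.4 CPM in activated WT and 27.4, 23.9 and 23.1 CPM in KO (log2 fold change -1.71, SE 0.14). The lower gene B930095G15Rik (log2 fold change -1.27, SE 0.17) lies within the Farp1 span, and without stated strand its reads cannot be told apart from those of Farp1. Sh2d1a, the adaptor SAP of SLAM family receptors, had 59.4, 50.3 and 61.8 CPM in activated WT and 29.5, 31.4 and 33.6 CPM in KO (log2 fold change -0.88, SE 0.14). Cd6 fell by 0.46 (SE 0.07), from 801, 791 and 810 CPM to 582, 593 and 593 CPM, while its site was higher. After forskolin Cd6 was higher in KO by 0.35 (SE 0.04).

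Mgat5, which branches N-glycans, differed by -0.58 (SE 0.13), Phf6, a chromatin protein, by -0.47 (SE 0.06), and Rap1gds1, a partner of small GTPases, by -0.31 (SE 0.07). Rap1gds1 lost the call without activated KO replicate 2 (adjusted p = 0.0546 by edgeR). Rora, with 2.95, 2.94 and 3.72 CPM in activated WT and 2.68, 1.35 and 1.26 CPM in KO, was at -0.86 (SE 0.28, adjusted p = 0.0466 by edgeR). The highest of the KO RNA values was that of replicate 1, the number at which the KO site resembled WT.

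**Figure D5:**
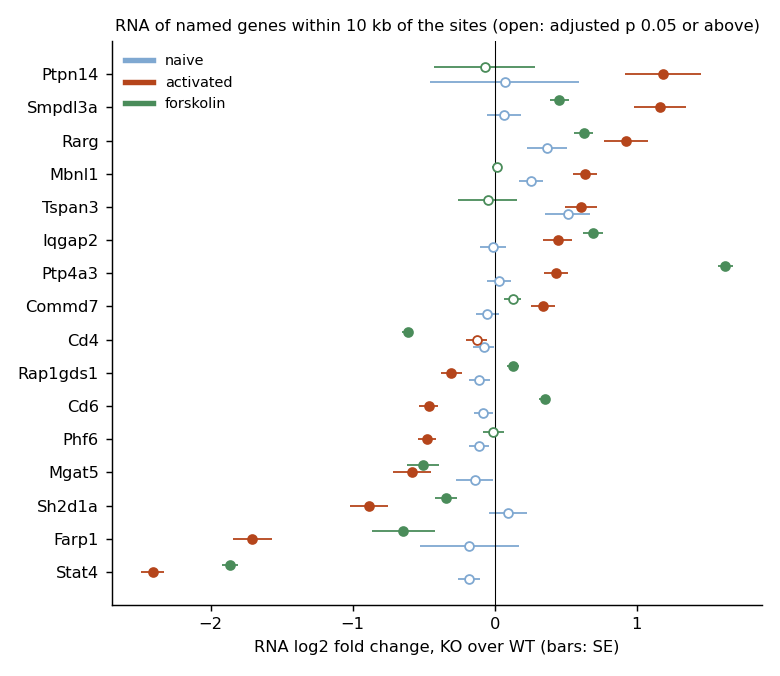
RNA log2 fold change of KO over WT (x axis, bars are SE) for 16 named genes within 10 kb of the sites, in naive (blue), activated (red) and forskolin-treated (green) cells. Filled points have an adjusted p under 0.05. Activated values run from -2.41 for Stat4 to 1.18 for Ptpn14, and no naive point is filled.

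A pair of genes was picked by known roles in cyclic AMP signalling after the links were seen, and stands for no list. Gnas, the Gs alpha subunit that activates adenylyl cyclase, had a site (chr2:174344099-174344499) at 3.99, 4.95 and 5.17 CPM in activated WT and 9.22, 9.02 and 8.75 CPM in KO. Gnas RNA was at 934, 895 and 902 CPM in activated WT and 859, 836 and 843 CPM in KO (log2 fold change -0.13, SE 0.06, adjusted p = 0.206 by edgeR). Akap13, an anchoring protein for PKA, had 141, 144 and 134 CPM in WT and 134, 126 and 119 CPM in KO, with an adjusted p of 0.279 by edgeR. Neither passed the test in activated cells. Of 17 counted genes in the list of cyclic AMP and CREB targets, none was near one of the 89 sites. None of the 30 genes in the list of naive and quiescent T cells was either, and none of 10 class II genes. With 75 genes near the sites against 23924 matched symbols, lists this short would mostly hold none, so nothing is read from these absences.

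With activation in WT, 30 of the 57 genes fell and 22 rose by edgeR, which is 52.6% and 38.6%. Of all genes tested 40.3% fell and 42.3% rose, and of genes near the other closing sites 54.5% and 30.9%. In naive cells 1 of 57 was called, against 0.242% of all genes and 0.437% of genes near the other closing sites. This was Ppic, a cyclophilin, with 14.5, 11.6 and 9.79 CPM in WT and 24, 19.9 and 21.9 CPM in KO (log2 fold change 0.85, SE 0.16, adjusted p = 0.0356 by edgeR). Its site had 5.2, 4.40 and 6.21 CPM in naive WT and 10.2, 9.85 and 12.3 CPM in naive KO. The Ppic call was lost without naive WT replicate 2 or any 1 naive KO library.

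The genotype difference in RNA itself changed with activation at 6 of the 57 genes, by edgeR's test of the interaction, where 3.7% of all genes tested were called. They were Stat4, Farp1, Sh2d1a, Cd6 and Phf6, with a lower activated value, and Smpdl3a, with a higher one. With upper-quartile scaling 7 were called, 3 in the lower and 4 in the higher direction, and without naive KO replicate 1 there were 2 lower and 3 higher. With no low-count filter 5 were lower and 3 higher, so the split of 5 and 1 depends on these choices. Without activated KO replicate 2, or without activated WT replicate 2, 3 were called.

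After forskolin 34 of the 57 were called, 22 higher (38.6%) and 12 lower (21.1%) in KO. Of all genes tested 38.5% were called, 19.7% higher and 18.8% lower. Of genes near the other closing sites 44.9% were called, 22.8% higher and 22.1% lower. Nrp1, a semaphorin receptor, had 1.30, 1.11 and 1.18 CPM in WT and 6.36, 6.91 and 4.98 CPM in KO (log2 fold change 2.31, SE 0.26), though activated cells showed -0.07 (SE 0.13). Il10ra, the IL-10 receptor chain, had 20.2, 20.4 and 23.1 CPM in WT and 45.4, 49.9 and 51.3 CPM in KO (log2 fold change 1.17, SE 0.08), against -0.44 (SE 0.21) in activated cells. Both were picked after their values were seen. The forskolin libraries were fitted apart from the activated ones, so differences between those states were not tested. Forskolin Cd4 was lower in KO, at 607, 646 and 598 CPM against 908, 960 and 921 CPM.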

How the data were processed

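RNA-seq and ATAC-seq of CD4 T cells were analysed from the counts the authors deposited, per gene and per site, as whole numbers without scaling. The authors also deposited, per site, an FDR (adjusted p-value) and a log2 fold with the group log2 means, which, tested on the values, carry no library scaling. The build is mm10, per the submitters' processing notes; aligner, counter and caller are not given in the sources used here. Rows with no gene symbol (1314, 0.128% to 0.159% of counts) were left out.

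Sites were joined by position in the 2 ATAC tables. edgeR 4.0.16 in R 4.3.3 (filterByExpr, TMM, robust quasi-likelihood, Benjamini-Hochberg over all genes or sites at 0.05) fitted the naive and activated libraries together and forskolin apart, after a check on simulated data. RefSeq spans (23924 of 25865 symbols matched) linked genes within 10 kb. DESeq2 1.42.0, other scalings, filters, limits and left-out libraries were alternatives. Intervals and tests cover these libraries only. Named sites were the 10 largest differences with no overlap and at least 2 CPM, the 5 highest in naive WT and those next to each limit. Named genes passed the activated test with at least 5 CPM and no overlap, or were on a list; Phf6 and Sh2d1a are X-linked and are given although the rule left out sex-linked genes. The members and lists were chosen with earlier results of these data known.

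Replicate numbers were checked for pairing by the correlation of deviations from the group means. Between genotypes of one state, activated RNA alone met the limit of 0.1 in every pair, with 0.56, 0.28 and 0.24 for numbers 1, 2 and 3. Across states, RNA of activated KO met it with naive KO (0.36, 0.18 and 0.13) and with naive WT (0.36, 0.12 and 0.19), and the other pairs of groups did not.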

Additional observations from a re-analysis of the deposited data

Results flagged for a closer look

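For 6 genes near the sites, the RNA difference between KO and WT was not the same in naive and activated cells, by edgeR's test of the interaction with adjustment over all genes. The activated minus naive difference was -2.23 for Stat4 (SE 0.11, adjusted p = 1.49e-09). It was -1.53 for Farp1 (SE 0.38, adjusted p = 0.0326) and -0.98 for Sh2d1a (SE 0.19, adjusted p = 0.0078), both by edgeR. For Cd6 it was -0.39 (SE 0.09, adjusted p = 0.028) and for Phf6 -0.37 (SE 0.09, adjusted p = 0.036) by edgeR. Smpdl3a was the one gene with a positive value, 1.10 (SE 0.22, adjusted p = 0.00903 by edgeR). The activated WT and KO libraries of each of the 6 genes did not overlap. Groups of 3 libraries are too small for a check of single outlying libraries.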

How the results depend on the processing

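The number of sites depended on the rule. It was 511 with 0.1 CPM added, 38 with 1 CPM added, 11 with stricter limits, 459 with looser limits, and 87 to 140 without 1 library, the highest without activated WT replicate 2. TMM scaling gave 93 sites, 62 of them among the 89. The median difference in left-out replicates was 0.48 to 0.64, for the sites chosen without them and not for the 89. Genes within 50 kb gave 28 calls of 126 in activated KO against WT, 112 of 126 in WT activation and 62 of 124 after forskolin. Over all genes tested 14.9%, 82.6% and 38.5% were called in these comparisons. At an FDR of 0.01 the interaction had 3 calls, naive RNA 0 and naive ATAC 7, and the authors' deposited FDR gave 0 naive ATAC calls. Leaving out 1 library gave 3 to 7 interaction calls, 0 to 1 naive RNA calls and 6 to 16 naive ATAC calls, lowest without naive WT replicate 2, and 7 without naive KO replicate 3. With the replicate block, activated RNA had 20 calls, 11 lower and 9 higher, and the interaction 7, 6 lower and 1 higher. The block changed no call of a named gene. In naive ATAC, where the numbers did not pair the libraries, the block gave 22. Of the named genes none reversed. Low activated WT counts limit the precision, with 33 sites under 30 counts a library.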
